A study of Mus musculus with 33 samples.

Results

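The liver X receptors LXRα (Nr1h3) and LXRβ (Nr1h2) and 8 genes that they are known to control were followed in macrophages (macs). These were Kupffer cells (KCs), the resident macs of the liver, and alveolar macs (AMs), from mice with and without Cre-mediated deletion of Zeb2. The 10 genes are 2 receptors, the sterol exporters Abca1 and Abcg1, the apolipoproteins Apoe and Apoc1, the ubiquitin ligase Mylip, and the lipid synthesis genes Srebf1, Lpcat3 and Scd2. They were taken by gene symbol from the 24421 genes of each count table, and all 10 were found and passed the filter on low counts in every comparison. The data are bulk RNA-seq of 33 samples with 25000 sorted cells in each. The study states in general that C57Bl/6 mice of both sexes between 6 and 8 weeks of age were used. All mice carried Zeb2fl/fl alleles, and the CRE- controls were Zeb2fl/fl littermates without a Cre transgene (6 KC samples and 5 AM samples). Clec4f-crexZeb2fl/fl mice provided Tim4+ KCs and Tim4- KCs (6 samples each), and Itgax-crexZeb2fl/fl mice provided CD11b- AMs and CD11b+ AMs (5 samples each). Clec4f-cre is driven by a KC lectin promoter and also labels a minor B cell population, and Itgax-cre is driven by the CD11c promoter, which is active in AMs and in other CD11c+ cells. The labels do not state whether the 2 CRE+ fractions of a tissue came from the same animals.

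LXRs are nuclear receptors that bind DNA as heterodimers with retinoid X receptors (RXRs) and are activated by oxysterols and by desmosterol, an intermediate of cholesterol synthesis. When cell sterol rises they induce cholesterol export and the genes of fatty acid and phospholipid synthesis, whereas low sterol activates the SREBP2 transcription factor, which drives cholesterol synthesis and uptake. LXRα is known as a transcription factor of KC identity, and macs of the lung handle the cholesterol of surfactant largely through ABCG1.

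Zeb2 was lower in each CRE+ group than in its controls. KCs had 282.7 ± 38.7 CPM in CRE- mice, 174.8 ± 25.9 CPM in the Tim4+ group and 169.9 ± 16.3 CPM in the Tim4- group (SD, n = 6 each). AMs had 193.7 ± 16.3 CPM in CRE- mice, 105.1 ± 11.9 CPM in the CD11b- group and 62.1 ± 7.88 CPM in the CD11b+ group (SD, n = 5 each). The sorted CRE+ populations thus still held reads on Zeb2. The study states that the floxed allele gives a truncated Zeb2 mRNA, so these reads do not measure intact transcript. It also found macs heterozygous for the deletion beside fully deleted macs in CRE+ mice, so the CRE+ samples may mix both. CPM are the reads on a gene relative to all reads on genes, after scaling of library sizes. Between 9837240 and 24332306 reads were counted on genes per sample. The 6 KC markers together reached 22600 to 24700 CPM in CRE- KCs and 307 to 514 CPM in CRE- AMs, and the 7 AM markers reached 18800 to 29300 CPM in CRE- AMs and 60.2 to 100 CPM in CRE- KCs. KC replicates 5 and 6 of each group had 1304 to 1720 reads on Ddx3y, a Y-linked gene, whereas the other KC samples had at most 3 and the AM samples at most 1. Comparisons of KCs with AMs thus set KC samples with and without such reads beside AM samples that all nearly lacked them. The part of sex in these comparisons was not tested.

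In CRE- cells, every one of the 10 genes differed between KCs and AMs with an adjusted p under 0.05 (quasi-likelihood test of edgeR, adjusted by Benjamini-Hochberg and used for all such calls), beside 63.2% of all genes tested. Of these, 6 also differed by over 2-fold, beside 33.3% of all genes, and 8 did not overlap between the tissues in any sample, beside 48.7%. Nr1h3, Abca1, Apoe, Apoc1, Mylip and Scd2 were higher in KCs, and Nr1h2, Abcg1, Srebf1 and Lpcat3 were higher in AMs. In the CRE+ cells, 1 of 10 genes changed in Tim4+ KCs compared with CRE- KCs, beside 6.09% of all genes, and 2 of 10 changed in Tim4- KCs, beside 25.4%. In AMs, 7 of 10 changed in the CD11b- group, beside 25.7% of all genes, and 8 of 10 in the CD11b+ group, beside 43.2%. By the added 2-fold threshold, 0 of 10 genes in Tim4+ KCs (2.31% of all genes), 1 in Tim4- KCs (8.82%), 3 in CD11b- AMs (6.5%) and 3 in CD11b+ AMs (15.3%) were counted. By levels that did not overlap with CRE- cells, 1 gene (4.82% of all genes), 1 (11%), 7 (18.1%) and 8 (32.5%) were counted in the same order. Between the CRE+ fractions of a tissue, 1 of 10 genes differed between Tim4- and Tim4+ KCs, beside 11.5%, and 8 of 10 between CD11b+ and CD11b- AMs, beside 36.4%. Over 2-fold these were 1 (5.45% of all genes) and 1 (10.2%), and without overlap 1 (5.87%) and 6 (25.8%). The median log2 change of the 10 genes was -0.0297 in Tim4+ KCs, -0.0708 in Tim4- KCs, 0.471 in CD11b- AMs and 0.28 in CD11b+ AMs, compared with -0.00311, -0.0309, 0.00269 and -0.00516 over all genes. Nothing in the labels says that replicates were separate animals, so p-values measure the spread between these samples. The CRE+ groups of a tissue share their CRE- controls, and their values are given side by side.

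**Figure D1:**
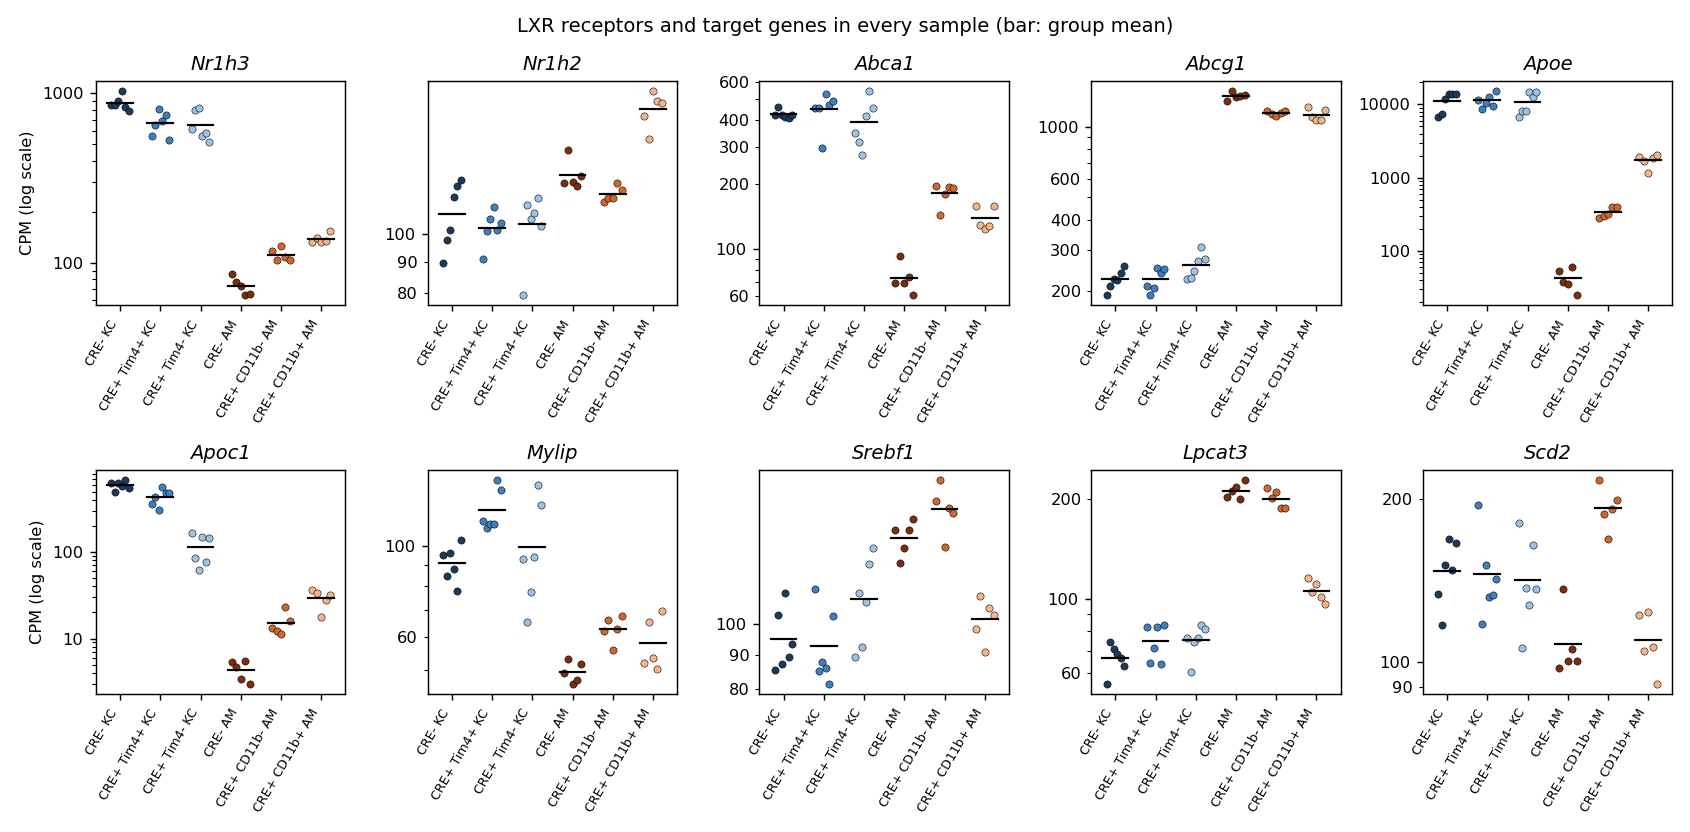
Level of each gene in every sample, in CPM on a log axis whose range differs between genes, with a point for each sample and a bar at the group mean (n = 6 for each KC group and n = 5 for each AM group). Apoe and Apoc1 lie far higher in KCs than in AMs and are higher in CD11b- AMs and higher again in CD11b+ AMs than in CRE- AMs, while Apoc1 drops in Tim4- KCs from 594.7 to 114.1 CPM on average and Apoe averages 10880 CPM there.

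Nr1h3 was the more variable receptor gene across the groups, with a 12-fold range of group means, whereas Nr1h2 spanned 1.57-fold. Per kilobase of exon (2.515 kb for Nr1h3 and 3.354 kb for Nr1h2), CRE- KCs had 11 ± 1.65 times more Nr1h3 than Nr1h2 (SD, n = 6), and CRE- AMs had 0.783 ± 0.0997 times as much (SD, n = 5). This per-length ratio was 8.64 ± 1.23 in Tim4+ KCs, 8.41 ± 1.82 in Tim4- KCs, 1.28 ± 0.132 in CD11b- AMs and 1.16 ± 0.118 in CD11b+ AMs. Per kilobase, Nr1h3 exceeded Nr1h2 in every KC sample and every CRE+ AM sample, and in none of the CRE- AM samples, where the highest ratio was 0.948. In CRE+ AMs this order depended on the division by length. In CPM, Nr1h3 was below Nr1h2 in every CD11b+ AM sample, with means of 139 and 160.5. It was also below in most CD11b- AM samples, with means of 111.8 and 116.6 CPM.

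**Figure D2:**
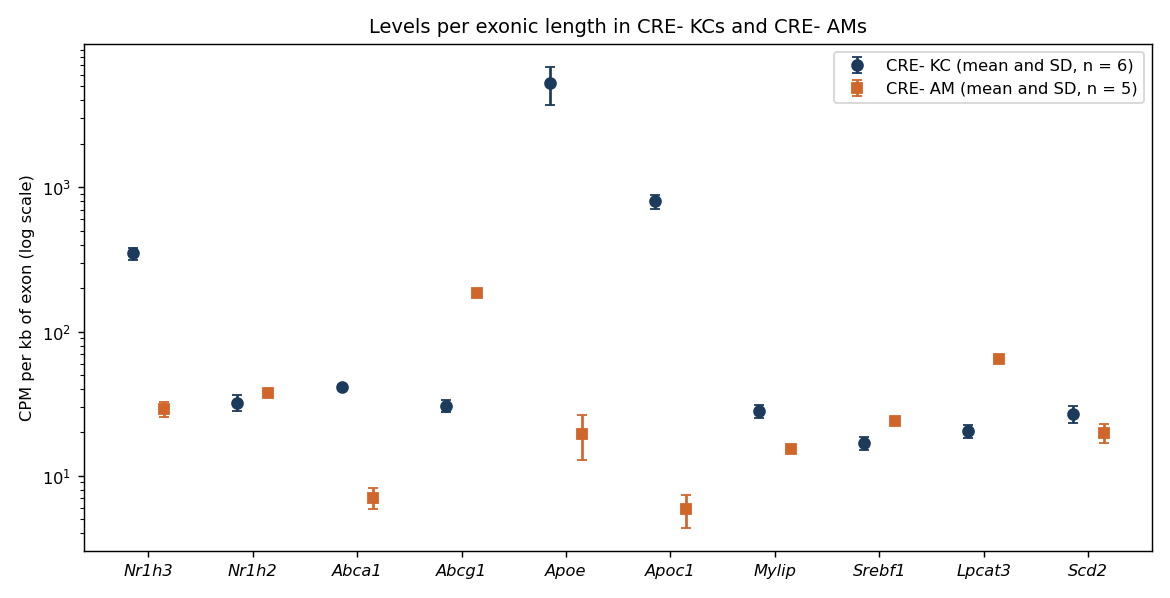
Level of each gene per kilobase of exon in CRE- KCs (circles, n = 6) and CRE- AMs (squares, n = 5), as mean and SD of CPM per kb on a log axis. Apoe is the highest of the 10 in KCs at 5259 CPM per kb and Abcg1 is the highest in AMs at 184.7 CPM per kb.

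In KCs, Nr1h3 was between 789.2 and 1028 CPM in CRE- mice (median 853.3), between 530 and 811.1 in the Tim4+ group (median 668.9) and between 516.8 and 814.6 in the Tim4- group (median 598.6). The lowest CRE- sample lay below the highest sample of each CRE+ group, so the ranges overlapped. The log2 fold change was -0.42 (SE 0.117, edgeR adjusted p = 0.0341) in Tim4+ KCs and -0.46 (SE 0.117, edgeR adjusted p = 0.00672) in Tim4- KCs. The call in Tim4+ KCs was lost when any of 10 of the 12 samples compared was left out, the exceptions being CRE- replicate 6 and Tim4+ replicate 3, with adjusted p up to 0.123. It was also lost with KC replicates 1 to 4 alone or 5 and 6 alone. The 2 CRE+ fractions differed by a log2 fold change of -0.04 (95% confidence interval -0.28 to 0.21).

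In AMs, Nr1h3 moved the other way. It was at 86.3, 77, 73.1, 64.4 and 65.8 CPM in the CRE- samples, at 117, 105, 126, 108 and 104 CPM in the CD11b- samples, and at 133, 141, 132, 134 and 154 CPM in the CD11b+ samples. None of the 3 AM groups overlapped with another. The log2 fold change from CRE- AMs was 0.60 (SE 0.0833, edgeR adjusted p = 2.36e-05) in the CD11b- group and 0.91 (SE 0.0836, edgeR adjusted p = 2.65e-08) in the CD11b+ group, which left the highest AM level below the lowest KC level. Nr1h2 was between 79.4 and 122.8 CPM in all KC samples and fell in no KC comparison, with a log2 difference of -0.09 in Tim4+ KCs (interval -0.29 to 0.10) and -0.07 in Tim4- KCs (interval -0.27 to 0.12). In AMs it rose in the CD11b+ group, by a log2 fold change of 0.34 (SE 0.0616, edgeR adjusted p = 0.000134), and was at -0.11 in the CD11b- group (interval -0.24 to 0.02). The difference of Nr1h2 between CRE- KCs and CRE- AMs was small, with a log2 fold change of -0.20 (SE 0.0848, edgeR adjusted p = 0.0483), and it was lost in 13 of 18 alternatives.

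Both receptor genes are on minus strands, Nr1h3 at chromosome 2, 91184061 to 91202834, and Nr1h2 at chromosome 7, 44549616 to 44553951 (GRCm38, GENCODE M21). ZEB2 belongs to a family of zinc finger factors that bind the E-box CACCTG. The RefSeq promoter table for GRCm38.p6 held windows of 300 bases, from 250 before to 50 after a start site, for 7 of the 10 genes (12 windows in all), and not for Abcg1, Apoc1 and Scd2. CACCTG on either strand was found in 5 of these 12 windows, belonging to Nr1h3, Nr1h2, Apoe and Srebf1, and in 20.2% of all windows in the table. Of the 2 Nr1h3 windows, 1 holds it (chr2:91195067-91195366, minus strand), and this window lies inside the bounds of the gene given above. Nr1h3 was called lower in both CRE+ KC groups and higher in both CRE+ AM groups. The call in Tim4+ KCs was lost in most fits that left out a sample. Binding of ZEB2 to this window was not tested. The window is shown as a description, with the E-box in capitals:
Nr1h3: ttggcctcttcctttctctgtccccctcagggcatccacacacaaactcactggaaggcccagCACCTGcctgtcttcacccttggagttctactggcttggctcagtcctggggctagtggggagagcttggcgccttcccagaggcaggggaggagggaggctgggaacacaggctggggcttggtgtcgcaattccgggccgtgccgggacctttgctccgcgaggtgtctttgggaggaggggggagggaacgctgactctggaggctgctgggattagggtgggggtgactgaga

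Abca1 and Abcg1 export cell cholesterol to lipid-poor apolipoprotein A-I and to high-density lipoprotein, respectively, and the 2 genes had opposite levels in the 2 tissues. CRE- KCs had 424.7 ± 18.6 CPM of Abca1 (SD, n = 6) and CRE- AMs 73.1 ± 11.8 CPM (SD, n = 5), a log2 fold change of 2.55 (SE 0.0958, edgeR adjusted p = 1.33e-11). Abcg1 was at 224.2 ± 21.6 CPM in KCs (SD, n = 6) and 1348 ± 46.1 CPM in AMs (SD, n = 5), a log2 fold change of -2.58 (SE 0.0695, edgeR adjusted p = 4.33e-13). No KC sample overlapped with an AM sample for either gene.

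In CRE+ AMs Abca1 rose and Abcg1 fell. Abca1 was at 68.9, 92.3, 69.4, 73.9 and 60.8 CPM in CRE- AMs, at 197, 144, 180, 194 and 192 CPM in CD11b- AMs, and at 158, 129, 124, 127 and 159 CPM in CD11b+ AMs. Every CRE+ sample was above every CRE- sample. The log2 fold change was 1.30 (SE 0.112, edgeR adjusted p = 4.68e-08) in the CD11b- group and 0.92 (SE 0.111, edgeR adjusted p = 1.18e-06) in the CD11b+ group. The CD11b+ group was lower than the CD11b- group by 0.39 on the log2 scale (SE 0.11, edgeR adjusted p = 0.00953), although their ranges overlapped and the difference had an adjusted p of 0.0506 with all 33 samples in the fit. Abcg1 was at 1286, 1413, 1331, 1349 and 1359 CPM in CRE- AMs and between 1069 and 1207 CPM in the 10 CRE+ AM samples, all of them below the lowest control. Its log2 fold changes were -0.25 (SE 0.048, edgeR adjusted p = 0.000738) and -0.28 (SE 0.048, edgeR adjusted p = 9.04e-05) in the CD11b- and CD11b+ groups, or 1.19-fold and 1.21-fold lower levels.

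In KCs neither exporter passed the test. The log2 difference of Abca1 from CRE- KCs was 0.06 in the Tim4+ group (interval -0.23 to 0.36) and -0.13 in the Tim4- group (interval -0.43 to 0.16), and that of Abcg1 was -0.02 (interval -0.21 to 0.17) and 0.18 (interval -0.01 to 0.37). Abcg1 in Tim4- KCs passed with all 33 samples in the fit (0.20, edgeR adjusted p = 0.0414) and with a replicate block (0.17, edgeR adjusted p = 0.0431), which also gave a called difference from Tim4+ KCs (0.20, edgeR adjusted p = 0.0439). The spread of Abca1 differed between the groups, from 407.5 to 460.6 CPM in CRE- KCs, from 294.5 to 529.4 CPM in Tim4+ KCs and from 274.5 to 544.4 CPM in Tim4- KCs. In Tim4- KCs replicates 5 and 6, which carried Ddx3y reads, averaged 500 CPM of Abca1 and the other 4 averaged 339.2 CPM. Abcg1, Mylip, Srebf1 and Lpcat3 were likewise higher in these 2 samples than in the other 4 Tim4- samples, and their part in these levels was not tested.

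The Abca1 promoter is known to carry an LXR response element, in which 2 half-sites are spaced by 4 bases. A sequence of GGTTA, 4 bases of any kind and CGGTCA, searched on both strands, was present in the Abca1 window and in 1 of the 3 Srebf1 windows, and in 4 of all 32851 windows (0.0122%). This sequence was written down with both promoters in view, so its presence in them is a description. A strict repeat, with AGGTCA on both sides of 4 bases, was in none of the 12 windows of these genes and in 0.0152% of all windows. The stretches around the shared element are shown on the strand of the gene (Abca1 at chr4:53159923-53159987 and Srebf1 at chr11:60210614-60210678, both minus strand), with the bases that match the reverse complement of its fixed letters in capitals. The element began at position -67 from the start site in Abca1 and at position -182 from the third start site of Srebf1:
Abca1: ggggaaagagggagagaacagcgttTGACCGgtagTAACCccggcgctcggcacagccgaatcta
Srebf1: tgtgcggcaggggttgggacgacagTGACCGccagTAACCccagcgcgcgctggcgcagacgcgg
Abca1 rose in both CRE+ AM groups, and Srebf1 fell in the CD11b+ group.

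**Figure D3:**
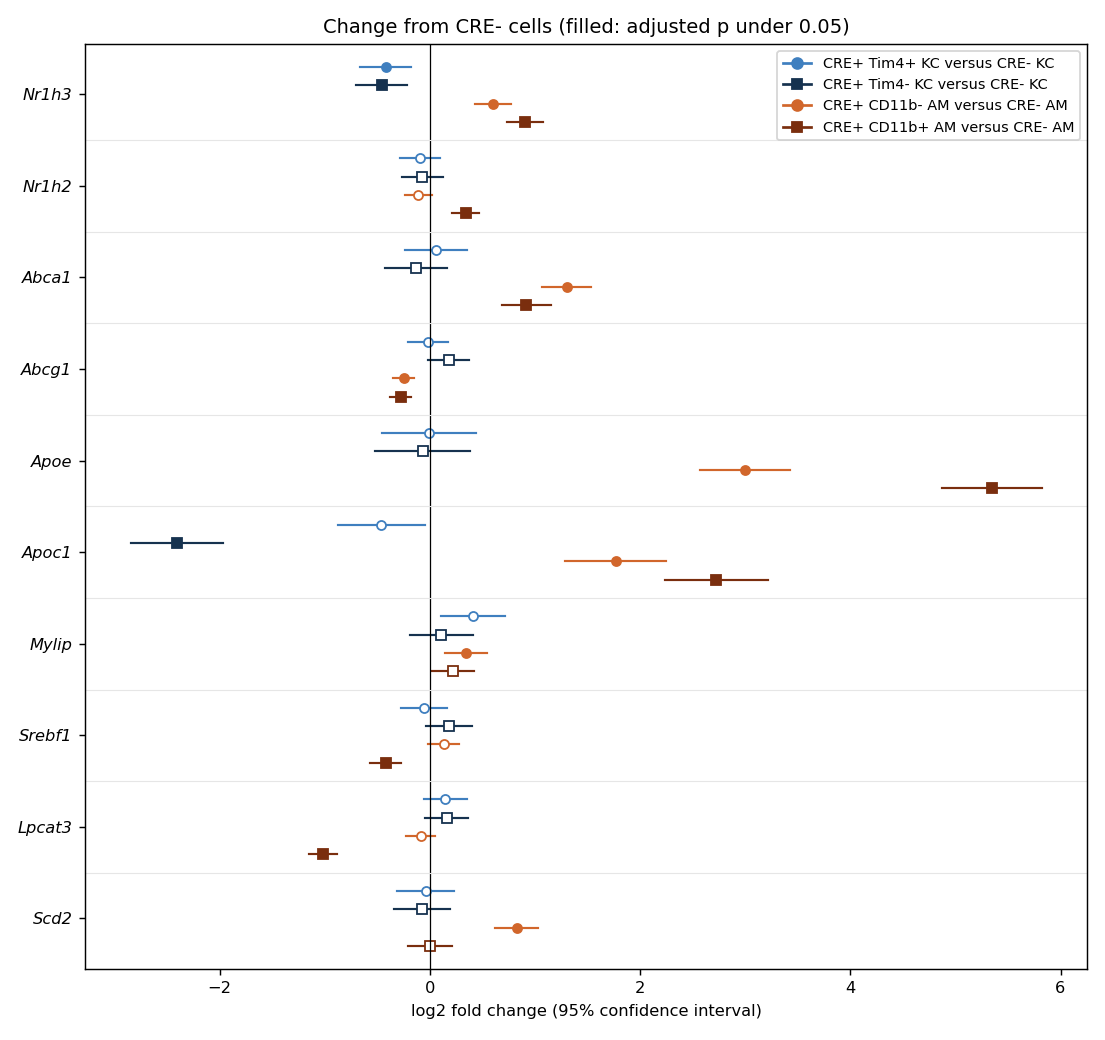
Log2 fold change of each gene from the CRE- cells of the same tissue, with 95% confidence intervals, in Tim4+ KCs and Tim4- KCs (blue) and in CD11b- AMs and CD11b+ AMs (orange and brown), where filled symbols mark an adjusted p under 0.05. Apoc1 in Tim4- KCs is the lowest KC value at -2.40, Nr1h3 is filled at -0.42 in Tim4+ and -0.46 in Tim4- KCs, and the AM values of Apoe reach 2.995 and 5.35.

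Apoe encodes the lipid carrier of remnant lipoproteins, and Apoc1 a small apolipoprotein that exchanges between lipoprotein particles. Both genes share the minus strand of chromosome 7, with Apoe from 19696109 to 19699188 and Apoc1 from 19689481 to 19692660, separated by 3448 bases. Among the 10 genes, these 2 differed most between the tissues. Apoe was between 6761 and 14030 CPM in CRE- KCs (median 12750) and at 53.3, 36.8, 34.7, 60.2 and 24.5 CPM in CRE- AMs, a log2 fold change of 8.08 (SE 0.331, edgeR adjusted p = 3.3e-11). Apoc1 was between 494.3 and 681.9 CPM in CRE- KCs (median 605.8) and at 5.35, 4.73, 3.38, 5.46 and 2.98 CPM in CRE- AMs, a log2 fold change of 7.09 (SE 0.168, edgeR adjusted p = 1.29e-13).

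The 2 neighbors separated in CRE+ KCs. Apoc1 was between 310.3 and 559.6 CPM in Tim4+ KCs (median 459.3) and between 62.7 and 166.5 CPM in Tim4- KCs (median 114.3). All Tim4- samples were below all samples of the other 2 KC groups, while the Tim4+ samples overlapped with the controls. Its log2 fold change from CRE- KCs was -2.40 (SE 0.212, edgeR adjusted p = 5.15e-08) in the Tim4- group, a 5.3-fold lower level, and from Tim4+ to Tim4- KCs it was -1.95 (SE 0.208, edgeR adjusted p = 7.76e-06). In the Tim4+ group the value was -0.46 (interval -0.88 to -0.04), which did not pass the test (adjusted p = 0.232 from edgeR), but did so with an adjusted p of 0.0383 when only the 2 groups compared were in the fit. Apoe was between 8570 and 15170 CPM in Tim4+ KCs (median 11070) and between 6742 and 14910 CPM in Tim4- KCs (median 10450). Both ranges lay over that of the controls, with log2 differences of -0.01 (interval -0.45 to 0.44) and -0.07 (interval -0.52 to 0.38).

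Hepatocytes make both apolipoproteins, and 8 hepatocyte markers together reached 172 to 486 CPM in CRE- KCs, 147 to 461 CPM in Tim4+ KCs and 90.1 to 233 CPM in Tim4- KCs. None of the 8 was at 0 in a KC group, and by edgeR 0 of 8 were lower in Tim4+ KCs and 1 of 8 in Tim4- KCs. The 8 liver endothelial markers were at 644 to 1900 CPM in CRE- KCs, 1100 to 3150 CPM in Tim4+ KCs and 390 to 558 CPM in Tim4- KCs, and the 6 KC markers were at 22600 to 24700, 14100 to 15600 and 9130 to 10500 CPM in the 3 groups. Of the endothelial markers 0 of 8 were lower in Tim4+ KCs and 7 of 8 in Tim4- KCs. Of the KC markers 4 of 6 were lower and 1 higher in Tim4+ KCs, and 6 of 6 were lower in Tim4- KCs. The KC markers include Timd4, which encodes Tim4, so its fall in Tim4- KCs was set by the sort. They also include Cd5l, which is counted again below among other LXR targets and among KC genes that the study followed. B cell markers summed to 47.5 to 95.6, 103 to 145 and 155 to 286 CPM in the 3 groups. Of the 4 tested, 1 was higher in each CRE+ group and 1 lower in Tim4+ KCs. The B cell list includes Ms4a1, which encodes CD20, and the study found CD20 on KCs that had deleted Zeb2. Monocyte markers summed to 171 to 312, 149 to 354 and 289 to 822 CPM, and of the 4 tested 1 was higher in each CRE+ group and 1 lower in Tim4- KCs. Ccr2, a chemokine receptor of monocytes, averaged 4.98 CPM in CRE- KCs, 21.8 CPM in Tim4+ KCs and 115.6 CPM in Tim4- KCs. Ccr2 is 1 gene of this list, and another gene of the list was lower in Tim4- KCs. The study lists Apoc1 among genes that differ between monocyte-derived and embryonic KCs. It defined CRE+ KCs that lack Siglecf and Timd4 and express Cx3cr1 and Ccr2 as putative monocyte-derived KCs. Levels of Siglecf and Cx3cr1 are not reported here, so the Tim4- samples were not matched to that definition. The part of other cells and of cell origin in the Apoc1 result was not tested. In bulk samples fewer cells of a type and less RNA per cell cannot be told apart.

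In AMs both apolipoproteins rose in the CD11b- group and further in the CD11b+ group. Apoe was at 275, 293, 317, 395 and 400 CPM in CD11b- AMs and at 1926, 1673, 1155, 1824 and 2059 CPM in CD11b+ AMs, and none of the 3 AM groups overlapped. The log2 fold change from CRE- AMs was 2.995 (SE 0.205, edgeR adjusted p = 1.93e-09) in the CD11b- group and 5.35 (SE 0.226, edgeR adjusted p = 2.65e-13) in the CD11b+ group, which is 40.8-fold. The mean of 1727 CPM reached in CD11b+ AMs compares with 11240 CPM in CRE- KCs. Apoc1 was at 13.2, 12.2, 11.2, 22.9 and 15.8 CPM in CD11b- AMs and at 36, 33.9, 17.8, 27.6 and 31.5 CPM in CD11b+ AMs, above CRE- AMs in every sample. Its log2 fold changes were 1.77 (SE 0.231, edgeR adjusted p = 1.17e-05) and 2.72 (SE 0.235, edgeR adjusted p = 9.77e-09).

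Markers listed for other cell types moved with Apoe in AMs. The lung epithelial list includes Epcam, and the study found EpCam on AMs that had deleted Zeb2. The 6 neutrophil markers found in the files together were at 35.9 to 59.6 CPM in CRE- AMs, 805 to 2420 CPM in CD11b- AMs and 8160 to 10500 CPM in CD11b+ AMs, and the 8 lung epithelial markers were at 115 to 153, 504 to 601 and 1320 to 1700 CPM. By edgeR 4 of 6 neutrophil and 5 of 8 epithelial markers were higher in CD11b- AMs, and 6 of 6 and 6 of 8 in CD11b+ AMs. Of the 7 AM markers, 4 were lower and 0 higher in CD11b- AMs, and 5 were lower and 2 higher in CD11b+ AMs, with median log2 changes of -0.529 and -1.28. Their sum, at 18800 to 29300 CPM in CRE- AMs and at 21500 to 31000 and 38900 to 53800 CPM in the CRE+ groups, was mostly Chil3, a chitinase-like protein gene, which averaged 24200, 24820 and 42550 CPM, while Krt79 averaged 409.7, 275.5 and 124.4 CPM. Monocyte markers summed to 598 to 1040, 80.6 to 175 and 348 to 630 CPM in the 3 AM groups. Of the 5 tested, 1 was higher and 1 lower in CD11b- AMs, and 4 were higher and 1 lower in CD11b+ AMs, where Ly6c2 averaged 113.5 CPM compared with 0.266 CPM in CRE- AMs. Hepatocyte markers were at most 0.86 CPM in any AM sample, with Alb, which encodes albumin, at 0 in all CRE+ AM samples. The methods give no full gate for these sorts. In a separate flow cytometry assay the study drew lung macs from live cells positive for CD45, CD64 and CD11c. The part of cells with neutrophil, epithelial or monocyte markers in the Apoe and Apoc1 results was not tested.

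Mylip encodes a ubiquitin ligase that limits the uptake of lipoproteins. It was between 77.7 and 103.8 CPM in CRE- KCs and between 46.2 and 53 CPM in CRE- AMs, a log2 fold change of 0.89 (SE 0.082, edgeR adjusted p = 2.6e-07). In Tim4+ KCs it was between 110.5 and 145.1 CPM, above all controls, which was so for 4.82% of all genes. The log2 difference of 0.41 (interval 0.11 to 0.71) nonetheless had an adjusted p of 0.112 from edgeR, and of 0.00946 when only the 2 groups compared were in the fit. In Tim4- KCs it was between 65.5 and 141.4 CPM, a log2 difference of 0.11 (interval -0.19 to 0.41). In CD11b- AMs Mylip was at 62.3, 66.2, 55.9, 62.9 and 67.6 CPM, above all CRE- AMs, and rose by a log2 fold change of 0.34 (SE 0.0949, edgeR adjusted p = 0.0117), a call lost with all 33 samples in the fit. In CD11b+ AMs it overlapped with CRE- AMs at a log2 difference of 0.22 (interval 0.02 to 0.42, edgeR adjusted p = 0.0717). This difference passed the test with a replicate block (edgeR adjusted p = 0.0328), without CD11b+ replicate 1 and without CD11b+ replicate 4, where the edgeR adjusted p was lowest at 0.0322.

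The 3 lipid synthesis genes differed in their direction in AMs. Srebf1 encodes SREBP1, which drives fatty acid synthesis, Lpcat3 places polyunsaturated fatty acids into phospholipids, and Scd2 desaturates fatty acids. Scd2 was at 97.7, 136, 101, 106 and 101 CPM in CRE- AMs, at 217, 188, 169, 192 and 199 CPM in CD11b- AMs, and at 122, 105, 124, 107 and 91.2 CPM in CD11b+ AMs. The CD11b- group thus stood above both other groups in every sample, with a log2 fold change from CRE- AMs of 0.83 (SE 0.0992, edgeR adjusted p = 4.37e-06), whereas the CD11b+ group was at 0.00 (interval -0.20 to 0.21). Lpcat3 was at 202, 212, 217, 199 and 228 CPM in CRE- AMs, at 215, 202, 210, 187 and 188 CPM in CD11b- AMs, and at 115, 105, 111, 101 and 96.6 CPM in CD11b+ AMs. Here the CD11b+ group stood below both others in every sample, with a log2 fold change of -1.02 (SE 0.0651, edgeR adjusted p = 1.28e-10) from CRE- AMs, and the CD11b- group was at -0.09 (interval -0.22 to 0.05). Lpcat3 shares 334 exonic bases, 10.2% of its exonic length, with Emg1 on the opposite strand, and the strand setting of the counting is not given in the sources used here. Emg1 had a log2 fold change of 0.00 (adjusted p = 0.987) in the same comparison. Srebf1 was at 138, 123, 130, 138 and 144 CPM in CRE- AMs and fell in CD11b+ AMs to 98.4, 110, 90.8, 106 and 103 CPM, without overlap and with a log2 fold change of -0.42 (SE 0.071, edgeR adjusted p = 6.86e-05). In CD11b- AMs it was at 0.13 (interval -0.02 to 0.28).

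In KCs none of these 3 genes changed. The 6 log2 differences from CRE- KCs lay between -0.08 and 0.18, with intervals between -0.34 and 0.40. Between CRE- KCs and CRE- AMs, Lpcat3 was lower in KCs by 1.66 on the log2 scale (SE 0.0768, edgeR adjusted p = 1.26e-10) and Srebf1 by 0.49 (SE 0.0784, edgeR adjusted p = 7.08e-05), and Scd2 was higher by 0.46 (SE 0.107, edgeR adjusted p = 0.00185).

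The levels of each gene were ordered over the 6 groups, and neighboring groups were compared in 1 fit of all 33 samples. Nr1h3, Apoe and Apoc1 shared the order of the AM groups, with CD11b+ over CD11b- over CRE-, and each of these neighbors differed. For Abca1 and Mylip the CD11b- and CD11b+ groups followed each other without a difference that passed the test, and for Srebf1 and Lpcat3 the CRE- and CD11b- groups did so, above the CD11b+ group. Neighboring KC groups had no difference that passed the test for Nr1h2, Abca1, Abcg1, Apoe, Mylip, Lpcat3 and Scd2. In the same fit the highest and lowest KC groups differed for Mylip (Tim4+ over CRE-, edgeR adjusted p = 0.0298), and Abcg1 in Tim4- KCs differed from CRE- KCs (edgeR adjusted p = 0.0414). For Nr1h2 the 1 neighboring pair that differed was CD11b+ AMs and CRE- AMs.

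The change in KCs (mean of both CRE+ groups less CRE- KCs) was then compared with that in AMs in a fit of all 33 samples. It differed for 7 of 10 genes, beside 19.5% of all genes, and by over 2-fold for 4 of 10, beside 8.15%. The difference, KC change less AM change, was -4.20 for Apoe (SE 0.299, edgeR adjusted p = 1.46e-12) and -3.67 for Apoc1 (SE 0.297, edgeR adjusted p = 2.71e-11). It was -1.18 for Nr1h3 (SE 0.137, edgeR adjusted p = 5.33e-08) and -1.14 for Abca1 (SE 0.171, edgeR adjusted p = 5.13e-06), of which Nr1h3 rose in AMs and fell in KCs and Abca1 rose in AMs. For the remaining genes it was -0.47 for Scd2, 0.35 for Abcg1 and 0.71 for Lpcat3, with adjusted p of 0.0286, 0.00658 and 2.81e-06 from edgeR. Nr1h2, Mylip and Srebf1 did not pass, with differences of -0.19 (interval -0.39 to 0.01), -0.01 (interval -0.34 to 0.32) and 0.21 (interval -0.02 to 0.45).

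LXRs act together with RXRs and with coregulators, of which 12 were listed and 11 tested. Rxra, the main RXR gene of macs, was at 323.8 ± 31 CPM in CRE- AMs, 398 ± 36.5 CPM in CD11b- AMs and 559.2 ± 57.2 CPM in CD11b+ AMs (SD, n = 5 each). Its log2 fold changes were 0.29 (SE 0.0828, edgeR adjusted p = 0.0138) and 0.77 (SE 0.0831, edgeR adjusted p = 2.42e-07). Rxra was the 1 gene of the list that rose in either AM comparison, while 4 and 5 fell, among them the coactivators Ncoa1 at -0.59 in the CD11b- group and Ncoa2 at -0.83 in the CD11b+ group. The median log2 change of the list was -0.397 in CD11b- AMs, compared with 0.00269 over all genes, and -0.188 in CD11b+ AMs, compared with -0.00516. In Tim4+ KCs none of the 11 passed the test by edgeR, DESeq2 or limma-voom, and 2 had an unadjusted p under 0.05 by edgeR. In Tim4- KCs 1, the coactivator Ncoa1, fell by 0.39 on the log2 scale. Over all genes, 25.7% were called in CD11b- AMs, 43.2% in CD11b+ AMs, 6.09% in Tim4+ KCs and 25.4% in Tim4- KCs.

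Of 20 other genes known as LXR targets, 14 were tested in AMs, and 5 rose and 5 fell in the CD11b- group, where 25.7% of all genes were called. Scd1, the paralog of Scd2, went from 4.37 ± 1.22 CPM in CRE- AMs to 133.1 ± 32.1 CPM in CD11b- AMs and 305 ± 80.2 CPM in CD11b+ AMs (SD, n = 5 each), with log2 fold changes of 4.92 and 6.11. Reads shared between Scd1 and Scd2 could be split in counting, and Scd2 was at a log2 difference of 0.00 in CD11b+ AMs. Arl4c, a small GTPase gene, was at 1.38 ± 0.645 CPM in CRE- AMs, 8.78 ± 1.03 CPM in CD11b- AMs and 23.5 ± 2.52 CPM in CD11b+ AMs (SD, n = 5 each), with log2 fold changes of 2.65 and 4.06. The genes that fell furthest in CD11b- AMs were Fads1 (-1.67) and Fasn (-0.63), a desaturase and fatty acid synthase, and the median of the list was 0.148. In CD11b+ AMs, where 43.2% of all genes were called, 6 rose and 5 fell, with Fasn at -1.02 and Pltp, which transfers phospholipids to lipoproteins, at -0.95, and the median was 0.279. In KCs 18 were tested, of which 1 rose and 2 fell in each CRE+ group, beside 6.09% of all genes called in the Tim4+ group and 25.4% in the Tim4- group. Cd36, a fatty acid and oxidized lipoprotein receptor, was at 302.7 ± 151 CPM in CRE- KCs and rose to 609.1 ± 62.6 CPM in Tim4+ KCs (SD, n = 6 each) by a log2 fold change of 0.99 (SE 0.228, edgeR adjusted p = 0.00906), and the 1 gene that rose in Tim4- KCs was Elovl5, at 0.35. Cd5l, a macrophage survival factor known as an LXR target, fell in both groups, at -0.45 and -0.72, Pltp in the Tim4+ group at -0.39, and Mertk, an efferocytosis receptor, in the Tim4- group at -0.32.

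The genes of the SREBP2 arm, which make and take up cholesterol, were mostly lower in CD11b- AMs, where Abca1 and Apoe were higher. Of 20 tested, 15 fell and none rose in CD11b- AMs, with a median log2 change of -0.757 compared with 0.00269 over all genes. Sqle, squalene epoxidase, was at 86.6 ± 6.08 CPM in CRE- AMs and 26.7 ± 7.97 CPM in CD11b- AMs (SD, n = 5 each), with a log2 fold change of -1.70. In CD11b+ AMs 10 of 20 fell, with Dhcr7 at -1.93 and Mvd at -1.51 as the largest falls, and 3 rose, among them Fdps at 0.46 and Insig2 at 0.37. Between the CRE- cells, 17 of 20 genes of this list had lower levels in KCs, with a median of -1.53. In Tim4+ KCs none of 21 passed the test by edgeR, DESeq2 or limma-voom, and 4 had an unadjusted p under 0.05 by edgeR. In Tim4- KCs 4 rose, among them Sqle at 1.22 and Fdft1 at 0.80, and 2 fell. The KC change less the AM change was higher for 12 of 21 and lower for 1, beside 19.5% of all genes called. Shares called over all genes were 63.2% between the CRE- cells, 25.7% in CD11b- AMs and 43.2% in CD11b+ AMs. They were 6.09% in Tim4+ KCs and 25.4% in Tim4- KCs.

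Of 15 genes of oxysterol and desmosterol metabolism, which set the supply of LXR ligands, 11 were tested in AMs. In CD11b- AMs, where 25.7% of all genes were called, 3 fell and none rose, with Hsd3b7, which metabolizes oxysterols, at -0.82. In CD11b+ AMs, where 43.2% of all genes were called, 5 fell and 2 rose. Among them were Hsd3b7 at -2.68 and Soat1, which esterifies cholesterol, at 0.68. Ch25h, cholesterol 25-hydroxylase, was at 137.6 ± 12.4 CPM in CRE- AMs and 0.245 ± 0.41 CPM in CRE- KCs (SD, n = 5 and n = 6), and in CD11b+ AMs it was lower than in CD11b- AMs by 1.73 on the log2 scale (SE 0.16, edgeR adjusted p = 7.54e-08). Cyp27a1, sterol 27-hydroxylase, had the opposite tissue pattern and was higher in CRE- KCs than in CRE- AMs by a log2 fold change of 4.02. In KCs 10 of the 15 were tested, and 2 fell in the Tim4+ group, beside 6.09% of all genes called, with Cyp27a1 at -0.35. In the Tim4- group, where 25.4% of all genes were called, Nceh1, a cholesterol ester hydrolase, fell at -0.53. Cyp39a1 rose there to a group mean of 1.47 CPM.

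The study also followed 7 KC genes (Cdh5, Pcolce2, Kcna2, C6, Il18bp, Cd55 and Cd5l) in KCs that lack Nr1h3, and the list comes from the study of these samples, so their direction here is not independent evidence. In Tim4+ KCs 5 of 7 fell, with a median log2 change of -0.451 compared with -0.00311 over all genes, and in Tim4- KCs 7 of 7 fell, with a median of -1.2 compared with -0.0309. C6, a complement component, was at 1309 ± 137 CPM in CRE- KCs, 638.7 ± 102 CPM in Tim4+ KCs and 247.3 ± 79.1 CPM in Tim4- KCs (SD, n = 6 each). Pcolce2, a procollagen processing enhancer, was at 232.6 ± 24.1, 111.7 ± 23.9 and 38.1 ± 8.24 CPM in the same groups. Their log2 fold changes were -1.05 and -1.08 in the Tim4+ group and -2.43 and -2.63 in the Tim4- group, beside -0.42 and -0.46 for Nr1h3. With KC replicates 1 to 4 alone the counts of genes that fell were 3 and 7. With replicates 5 and 6 alone they were 2 and 7. Of all genes, 6.09% were called in Tim4+ KCs and 25.4% in Tim4- KCs in the main fit. C6 is also on the study's list of genes that differ between monocyte-derived and embryonic KCs. The part of cell origin in its fall was not tested.

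**Figure D4:**
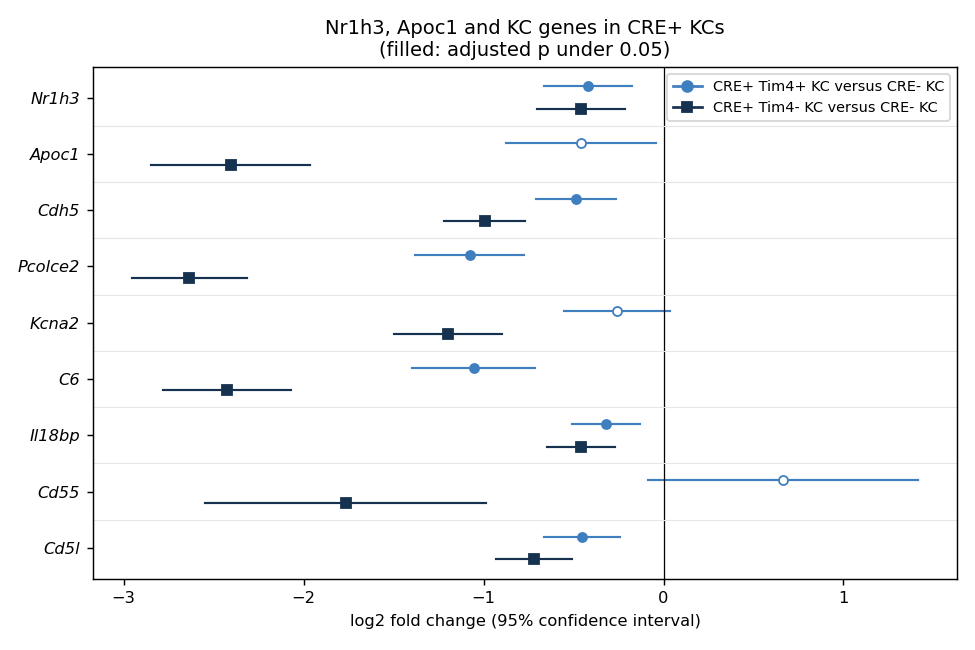
Log2 fold change from CRE- KCs, with 95% confidence intervals, of Nr1h3, Apoc1 and 7 KC genes in Tim4+ KCs (light blue circles) and Tim4- KCs (dark blue squares), where filled symbols mark an adjusted p under 0.05. Nr1h3 is at a like value in both groups, -0.42 and -0.46, whereas Apoc1, Pcolce2 and C6 are lower in Tim4- KCs than in Tim4+ KCs.

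The genes whose group means most resembled those of 3 members were found among 13293 other genes, by the root mean square difference of log2 CPM over the 6 groups after removal of each gene's own mean. Slc7a8, an amino acid transporter gene, was nearest to Nr1h3, with a difference of 0.154, at 576.2, 439.8 and 471.3 CPM in CRE-, Tim4+ and Tim4- KCs and at 56.5, 67.7 and 78.3 CPM in CRE-, CD11b- and CD11b+ AMs. St6gal1, a sialyltransferase gene, was nearest to Abca1, with a difference of 0.181, at 82.5, 91.7 and 88 CPM in the KC groups and 18.9, 35.9 and 24.5 CPM in the AM groups. Des, which encodes desmin and is a hepatic stellate marker, was nearest to Apoc1 at 0.3, with at most 3.56 CPM in any group mean. These values describe 6 group means that share all their samples, and no test was attached to them.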

How the data were processed

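Libraries of 33 sorted samples were sequenced, and the authors deposited 1 table of raw read counts per gene for each sample, with no normalization. The submitters' processing notes name FastQC 0.11.4, Trimmomatic 0.35, TopHat2 2.1.0, SAMtools 0.1.18 and the mouse build mm10, and the methods name HTSeq for counting. The gene annotation and strand setting are not given in the sources used here. The 5 tally lines without a gene, 5.88% to 10.1% of a table's total, were left out. Genes with low counts were removed with edgeR's default filter, libraries were scaled by TMM, and edgeR 4.0.16 (R 4.3.3) quasi-likelihood tests with Benjamini-Hochberg adjustment over all genes tested were run. KC groups shared a fit, AM groups shared a fit, CRE- KCs and CRE- AMs were fitted together, and the difference of changes and the order of levels used all samples. Confidence intervals are at 95%. Scripts were tested on simulated data. DESeq2 1.42.0, limma 3.58.1 (voom), other filters and scaling, a replicate block and leaving out samples were tried as alternatives. The genes and lists were chosen with earlier results of these data known. All 10 genes were named, with at most 2 rising and 2 falling called genes per list and comparison that averaged at least 1 CPM in the higher group. Of genes nearest in pattern, the first of 3 is given. Levels per length used exonic lengths from GENCODE M21. With a median of 20683608 reads per sample, counting error was on average small beside the spread between replicates. The chi-square, averaged over genes above a minimum of reads, was at least 12.8 in each of 75 replicate pairs. This average need not hold for genes with few reads. Values of some single genes of the lists are not reported here.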

Additional observations from a re-analysis of the deposited data

Results flagged for a closer look

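Within groups, 5 of 60 sets of samples held a sample far from the rest by Dixon's criterion, which chance gives in about 1 of 20. Nr1h2 was at 79.42 CPM in replicate 1 of Tim4- KCs, the sample with the lowest depth (9837240 reads), and at 137.6 CPM in replicate 2 of CRE- AMs. Abca1 was at 460.6 CPM in replicate 2 of CRE- KCs, the highest of its group, and at 294.5 CPM in replicate 3 of Tim4+ KCs, the lowest of its group. Scd2 was at 136.3 CPM in replicate 2 of CRE- AMs, the highest of its group.

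The change between CRE+ and CRE- cells differed between KCs and AMs, by the test of the difference itself in edgeR, for 7 genes. On the log2 scale the KC change less the AM change was -1.183 for Nr1h3, -1.1382 for Abca1, 0.3495 for Abcg1, -4.2011 for Apoe, -3.6673 for Apoc1, 0.7136 for Lpcat3 and -0.46602 for Scd2. The call of Scd2 was lost in 6 of 40 alternatives.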

How the results depend on the processing

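Of 1840 values of the 10 genes under the alternatives, 1773 kept their side of the threshold, 56 lost the call and 11 gained it. A reversal was counted only where the main or the alternative fit made a call, and 0 were found. Values without a call in both fits could change sign, as Abca1 did in Tim4- KCs (-0.35 to 0.25). Requiring over 2-fold gave 6 genes between CRE- KCs and CRE- AMs, 0 in Tim4+ KCs, 1 in Tim4- KCs, 3 in CD11b- AMs, 3 in CD11b+ AMs, 1 between CD11b+ and CD11b- AMs and 4 for the difference of changes. It gave 2 and 4 of the KC genes followed without Nr1h3 in Tim4+ and Tim4- KCs, and 5 of the SREBP2 arm in CD11b- AMs. These smaller counts follow from the added threshold.

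In Tim4+ KCs, where 1 gene was called, a fit of only the 2 groups gave 3, a fit of all samples 2, KC replicates 1 to 4 alone 0 and replicates 5 and 6 alone 0. Leaving out a sample gave 0 to 1. The KC gene list gave 2 with all samples in the fit, 3 with replicates 1 to 4 alone and 2 with replicates 5 and 6 alone. Between Tim4- and Tim4+ KCs, replicates 1 to 4 alone gave 2 genes and leaving out a sample gave 1 to 2, with Mylip added without Tim4- replicate 5. Counts for lists and fits of the order of levels were added after seeing the data. The causes were not tested.

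Replicate numbers were to be taken as pairing only if every pair of samples with the same number correlated above 0.1, which no comparison met. Tim4+ and Tim4- KCs came nearest, at 0.0938 to 0.203 (mean 0.155, compared with -0.0309 for other pairs). There 6 of 6 samples correlated best with their own number. CD11b- and CD11b+ AMs were at 0.032 to 0.087. The main fits held no block, so tests between the fractions may ignore a pairing. With a replicate block, 10, 1, 3, 2, 7, 9, 8 and 7 genes were called in the comparisons in the order CRE- KCs with CRE- AMs, Tim4+ KCs, Tim4- KCs, Tim4- with Tim4+ KCs, CD11b- AMs, CD11b+ AMs, CD11b+ with CD11b- AMs and the difference of changes. Shares called over all genes under this and other alternative fits are not reported here. Scaling by RLE in place of TMM moved log2 values by at most 0.0574.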
